A study of Mus musculus with 11 samples.

Results

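The small leucine-rich proteoglycans are secreted matrix proteins built around a core of leucine-rich repeats, and most of them carry chondroitin, dermatan or keratan sulfate chains. They bind collagen fibrils and help set fibril diameter and spacing, and several hold growth factors of the TGF-β family in the matrix. In the injured heart they are known as products of fibroblasts in the healing scar. The genes followed here were Dcn (decorin), Bgn (biglycan) and Aspn (asporin) of class I, Lum (lumican), Fmod (fibromodulin), Prelp and Omd (osteomodulin) of class II, Ogn (osteoglycin) of class III, and Chad (chondroadherin) and Podn (podocan) of the noncanonical classes. They were chosen by name, and matching by symbol found 10 of 10 among the 25006 genes counted. All 10 passed the filter on low counts, which kept 14779 genes.

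The counts came from left ventricles in 11 libraries, each labelled with a mouse tag, in 4 groups: naive control (n = 2), naive Vegfc-deficient (n = 3), control after myocardial infarction (MI, n = 3) and Vegfc-deficient after MI (n = 3). MI was made by permanent ligation of the left coronary artery and infarcted tissue was taken 9 days later, while naive mice gave ventricle of like mass and position. Vegfc-deficient mice carried floxed alleles (Vegfc fl/fl) together with LysMCre, a Cre recombinase placed in the Lyz2 locus and active in myeloid cells, so Vegfc of other cell types was left in place. The genotype labels give the controls as Vegfc fl/fl, whereas the extraction protocol and the study's methods give them as LysMCre. Ages were not given in the sources used here. The design asked how the response of the heart to MI depends on Vegfc from myeloid cells.

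Vegfc did not separate the genotypes in whole tissue, with 21.9 to 45.5 CPM (counts per 1000000, scaled by the TMM method) in control and 22.4 to 34.5 CPM in Vegfc-deficient libraries. Library M149, labelled as naive and deficient, held Lyz2 at 4565 CPM, more than either naive control (2121 and 2282 CPM). The rest of its group had far less (72.5 and 245 CPM). Counts of members called, list counts and, for some members, fold changes and shares of the family are also given without M149. In the MI Vegfc-deficient group M35 held Lyz2 at 1392 CPM, beside 12.4 (M913) and 203 CPM (M900). That was below all MI control libraries (4538 to 5380 CPM). Xist, the transcript of the inactive X chromosome, was at 188 to 403 CPM in all 6 MI libraries and at 0.62 to 11.8 CPM in all 5 naive libraries, and whatever Xist marks here and the effect of MI cannot be told apart. Bgn is an X-linked gene and the other members are autosomal. Total counts ran from 10824989 to 14585642 in naive and from 14580756 to 26782728 in MI libraries. A floor of 3 counts, which covers counting error only, was worth 0.101 to 0.363 CPM.

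In naive hearts Dcn was the leading transcript of the family. Decorin coats collagen fibrils and binds TGF-β. Dcn was read at 3412 and 3952 CPM in naive control libraries M44 and M45, and at 3026 (M149), 3703 (M150) and 3853 CPM (M34) in the naive Vegfc-deficient group. Levels of different genes were compared per kilobase of exon. On that scale Dcn held 58.4% ± 4.07 (SD, n = 2) of the summed level of the 10 members in naive control hearts and 54.9% ± 4.07 (SD, n = 3) in naive Vegfc-deficient hearts. Lum followed with 18.4% ± 3.39 (n = 2) and 18.2% ± 1.29 (n = 3). In naive control hearts the order was Dcn, Lum, Ogn, Bgn, Aspn, Prelp, and in each of these steps both libraries of the higher gene lay above both of the next. Podn, Fmod and Omd came below them, at 1.78, 1.47 and 1.28 CPM per kb. The libraries of Fmod overlapped those of Podn and of Omd, while both libraries of Podn lay above both of Omd. Chad was close to absent.

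At 9 days after MI, 9 of the 10 members were higher and Dcn was not past the threshold, in control and in Vegfc-deficient hearts. Leaving aside Chad, whose naive level was too low to fix a fold, they rose by 3.01-fold (Prelp) to 71.5-fold (Fmod) in control hearts and by 2.18-fold (Ogn) to 28.6-fold (Fmod) in Vegfc-deficient hearts. Over the whole table (quasi-likelihood test of edgeR, p adjusted over all genes), 26.3% of the 14779 genes tested were called higher by MI in control hearts and 30% in Vegfc-deficient hearts. Lower calls, of which the members had 0, made up 24.1% of all genes in control and 27.7% in Vegfc-deficient hearts. In these 9 members each MI library also lay above each naive library of its genotype, which held for 39.1% of all genes in control and 33.6% in Vegfc-deficient hearts. The median log2 fold change over the 10 members was 2.23 in control and 2.26 in Vegfc-deficient hearts, beside 0.13 and 0.10 over all genes. It was the same 9 members in both genotypes, and for each of them all 6 MI libraries lay above all 5 naive libraries. Chad, among these 9, passed the filter on low counts only through its MI libraries. Because the tissue was bulk, more cells of a type and more RNA per cell cannot be told apart.

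**Figure D1:**
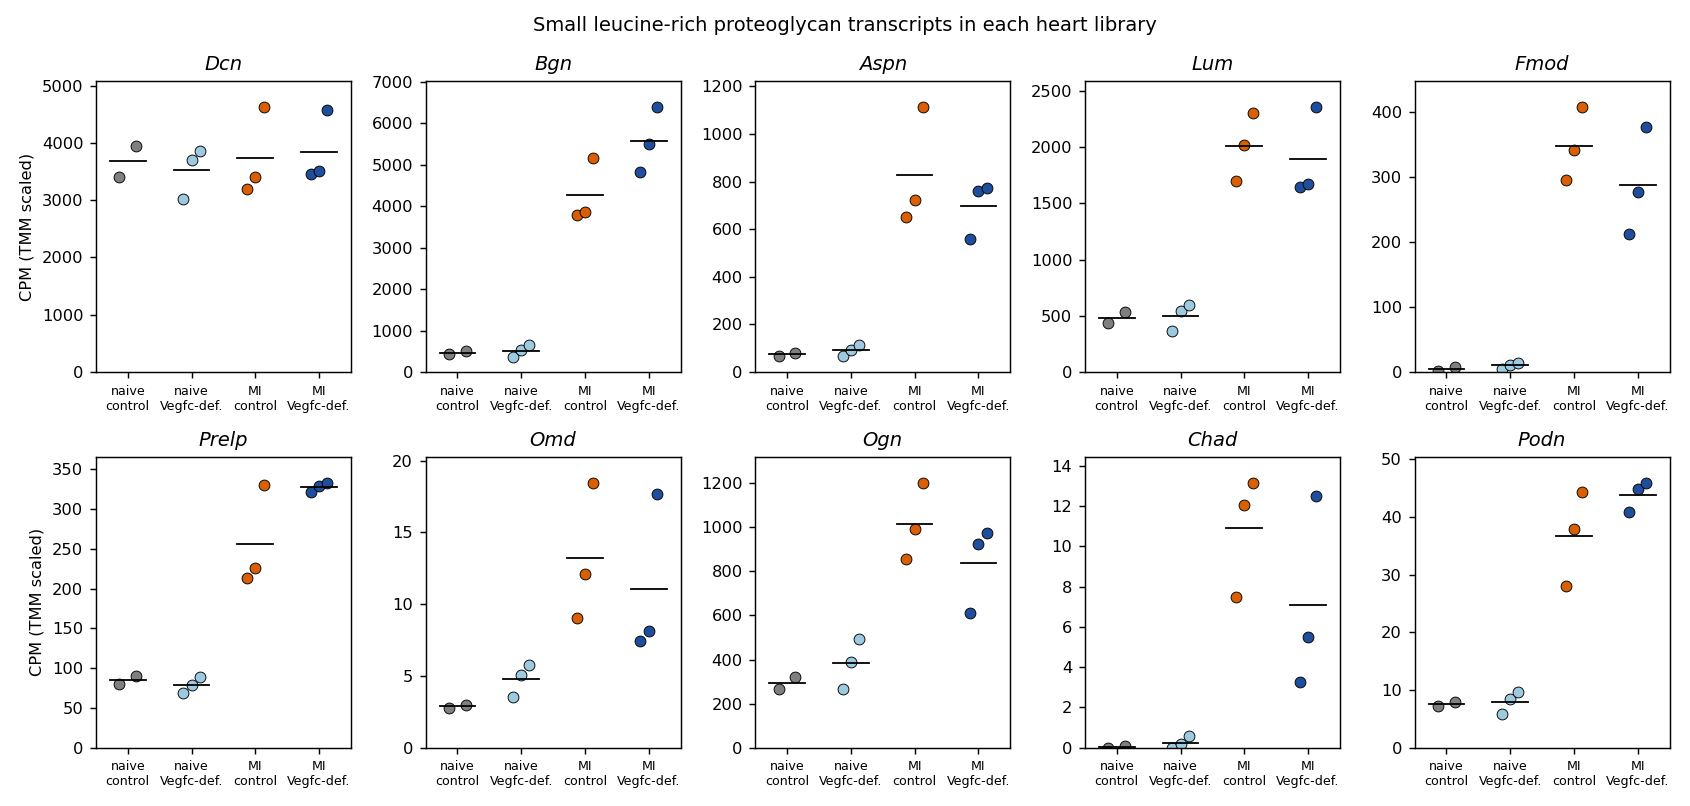
Levels of the 10 transcripts in the 11 libraries, in CPM on the TMM scale (y axis, linear from 0, with its own range for each gene), by group on the x axis. Points are libraries and bars are group means. Dcn stays between 3026 and 4618 CPM in all groups, while for the other 9 genes the 6 MI libraries lie above the 5 naive libraries.

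The level of Dcn after MI was 4618, 3396 and 3189 CPM in control libraries M006, M38 and M40. The Vegfc-deficient group had 4567 (M35), 3517 (M900) and 3462 CPM (M913). The MI and naive ranges overlapped in both genotypes. The log2 fold change was 0.02 in control hearts (SE 0.29, 95% confidence interval -0.62 to 0.67, edgeR adjusted p = 0.958) and 0.13 in Vegfc-deficient hearts (SE 0.26, interval -0.45 to 0.70, adjusted p = 0.698). The intervals hold values on both sides of 0, and with the size factors of DESeq2 the sign in control hearts turned (-0.04). With library size as the only scaling, the log2 fold changes of Dcn were 0.47 in control (adjusted p = 0.159) and 0.63 in Vegfc-deficient hearts (adjusted p = 0.0423), and the median of all genes then stood at 0.57 and 0.59. Under that scaling 76.2% of the genes called in control and 75.5% of those called in Vegfc-deficient hearts were higher after MI, against 52.1% and 52.0% under TMM.

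The other class I members, Bgn and Aspn, rose after MI. Biglycan binds collagen and, once released from the matrix, is a ligand of Toll-like receptors. Bgn was at 503 and 423 CPM in naive control M44 and M45 and at 3797, 3862 and 5169 CPM in MI control M006, M38 and M40. Vegfc-deficient hearts held it at 370, 654 and 531 CPM in naive M149, M150 and M34 and at 4828, 6379 and 5499.8 CPM in MI M35, M900 and M913. No MI library came near the naive range. The log2 fold changes were 3.21 (SE 0.36, edgeR adjusted p = 0.000207) in control and 3.43 (SE 0.30, adjusted p = 3.97e-05) in Vegfc-deficient hearts. Per kilobase, the MI libraries of Bgn overlapped those of Lum in both genotypes and those of Dcn in control hearts, while in Vegfc-deficient hearts all 3 libraries of Bgn lay above all 3 of Dcn.

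Asporin, which binds collagen and TGF-β, followed Chad and Fmod in the size of the log2 fold change in control hearts. Aspn was at 81.6 and 66.1 CPM in naive control M44 and M45 and at 724, 1111 and 651 CPM in MI control M006, M38 and M40. The Vegfc-deficient group had it at 67.9, 113 and 91.1 CPM in naive M149, M150 and M34 and at 760 (M35), 773 (M900) and 557 CPM (M913) after MI. M38 was the highest of all libraries and M913 the lowest of those after MI. The log2 fold changes were 3.49 (SE 0.34, edgeR adjusted p = 0.000145) and 2.94 (SE 0.28, adjusted p = 4.69e-05).

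Among the class II members, Fmod had the largest response that could be sized. Fibromodulin binds type I collagen and takes part in the assembly and cross-linking of fibrils. Fmod was at 2.23 and 7.52 CPM in naive control M44 and M45, from 25 and 83 counts, and at 296.5, 342 and 408 CPM in MI control M006, M38 and M40. In Vegfc-deficient hearts it was at 4.80, 11.5 and 13.9 CPM in naive M149, M150 and M34 and at 212, 377 and 277 CPM in MI M35, M900 and M913. The naive libraries differed from each other by more than the MI libraries did on a ratio scale. The log2 fold changes were 6.16 (SE 0.64, edgeR adjusted p = 0.000177) and 4.84 (SE 0.49, adjusted p = 5.99e-05). The value in control hearts moved to 5.53 without M44 and to 7.29 without M45, with both fits past the threshold.

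Lumican, a keratan sulfate proteoglycan that spaces collagen fibrils in the cornea and is found in many connective tissues, rose in both genotypes. Lum was at 535 and 432 CPM in naive control M44 and M45 and at 2301, 1701 and 2019.6 CPM in MI control M006, M38 and M40. Of the Vegfc-deficient libraries, those of naive hearts had 363 (M149), 592 (M150) and 542 CPM (M34) and those after MI 1673 (M35), 2351 (M900) and 1646 CPM (M913). MI against naive gave log2 fold changes of 2.05 (SE 0.31, edgeR adjusted p = 0.000636) and 1.92 (SE 0.26, adjusted p = 0.000218), with MI and naive libraries far apart.

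Prelp encodes a protein with a basic end that binds heparan sulfate and is placed at basement membranes. It was at 89.8 and 80.6 CPM in naive control M44 and M45 and at 226, 214 and 331 CPM in MI control M006, M38 and M40. The Vegfc-deficient libraries had it at 68.9, 88.4 and 78.3 CPM in naive M149, M150 and M34 and at 333, 329 and 321 CPM in MI M35, M900 and M913. The MI Vegfc-deficient libraries lay within a narrow range, and 1 MI control library, M40, fell inside it. Prelp had log2 fold changes of 1.59 (SE 0.21, edgeR adjusted p = 0.000391) and 2.06 (SE 0.19, adjusted p = 4.13e-05).

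Omd, a gene best known from bone, stayed at a low level. It was at 2.76 and 2.99 CPM in naive control M44 and M45 and at 12.1, 18.4 and 9.03 CPM in MI control M006, M38 and M40. Vegfc-deficient hearts had 5.10, 3.51 and 5.78 CPM in naive M149, M150 and M34 and 17.7, 8.13 and 7.41 CPM in MI M35, M900 and M913. In the latter group M35 stood above the other libraries. The log2 fold change was 2.19 (SE 0.47, edgeR adjusted p = 0.00347) in control and 1.19 (SE 0.38, adjusted p = 0.0218) in Vegfc-deficient hearts. The second call was lost without M35 (0.69, adjusted p = 0.0887), without M150 (1.02, adjusted p = 0.0799) and with limma-voom (0.75, adjusted p = 0.0808).

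Ogn, of class III, encodes osteoglycin, also called mimecan, a matrix protein expressed in heart and vessel wall. It was at 265 and 320.5 CPM in naive control M44 and M45 and at 993, 1200.2 and 855 CPM in MI control M006, M38 and M40. In Vegfc-deficient hearts it was at 267, 492 and 391 CPM in naive M149, M150 and M34 and at 973, 922 and 613 CPM in MI M35, M900 and M913. The gap between naive M150 and MI M913 was, as a ratio, the narrowest among the 9 members of this comparison. The log2 fold changes were 1.80 (SE 0.32, edgeR adjusted p = 0.00141) and 1.126 (SE 0.27, adjusted p = 0.00503).

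Chad and Podn make up the noncanonical members. Chondroadherin is a cartilage protein without a sulfated chain that binds type II collagen and integrin α2β1. Chad had 0 and 1 counts in naive control M44 and M45 and 244, 356 and 204 counts (13.1, 12.0 and 7.48 CPM) in MI control M006, M38 and M40. It had 0, 5 and 2 counts in naive Vegfc-deficient M149, M150 and M34 and 213, 131 and 79 counts (12.5, 5.49 and 3.27 CPM) in MI Vegfc-deficient M35, M900 and M913. The gene was thus read in every MI library and at or near the floor in naive ones. Chad passed the filter on low counts only through its MI libraries, so its call for MI adds no support beyond these counts. The ratio of summed counts per scaled library was 237 in control hearts, with an exact 95% interval of 42.4 to 9379 from 804 against 1 count, and 28.6 in Vegfc-deficient hearts, with an interval of 13.8 to 71.5 from 423 against 7 counts. These intervals cover counting error only. MI was called in both genotypes (edgeR adjusted p = 0.000715 and 0.000615), and the fitted fold changes moved by more than 1.5 times on leaving out M44, M45, M150 or M35 (log2 6.80, 10.63, 6.22 and 4.19 where main values were 7.71 in control and 4.88 in Vegfc-deficient hearts).

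Podocan, which is expressed in vascular smooth muscle and other connective tissue, rose with little spread among MI Vegfc-deficient libraries and more among MI control libraries. Podn was at 7.22 and 7.97 CPM in naive control M44 and M45 and at 44.36, 27.996 and 37.97 CPM in MI control M006, M38 and M40. In Vegfc-deficient hearts it was at 5.88, 9.68 and 8.38 CPM in naive M149, M150 and M34 and at 44.9, 40.8 and 45.9 CPM in MI M35, M900 and M913. All MI libraries were above all naive ones by a wide margin. Its log2 fold changes were 2.27 (SE 0.24, edgeR adjusted p = 2e-04) and 2.46 (SE 0.21, adjusted p = 3.64e-05).

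**Figure D2:**
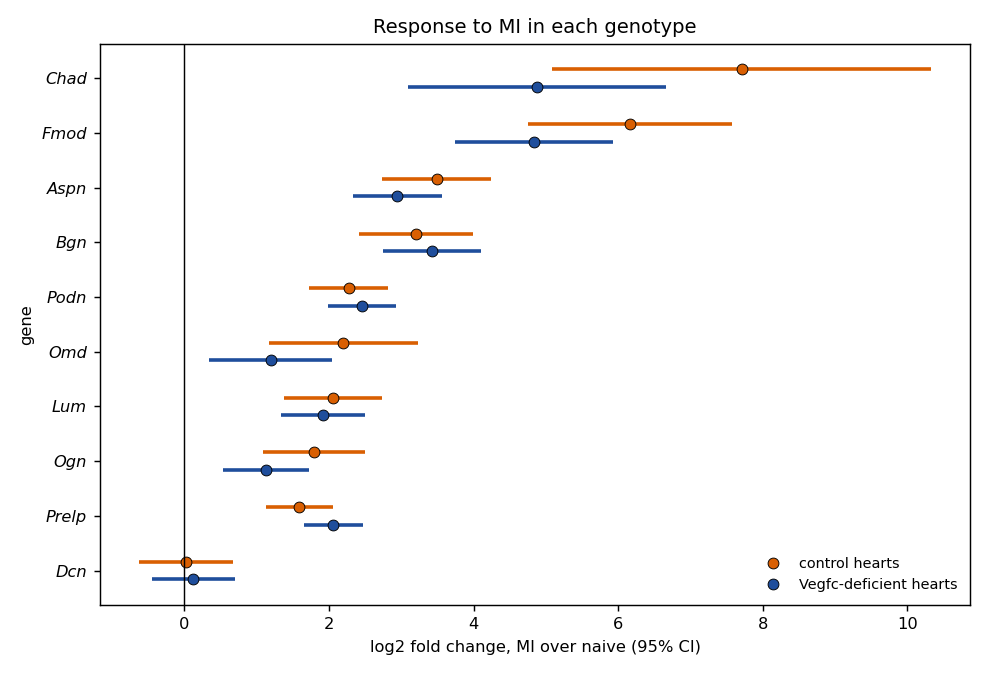
Log2 fold change of each member, MI over naive (x axis), with its 95% confidence interval from edgeR's quasi-likelihood fit, in control and in Vegfc-deficient hearts (y axis, genes in order of the value in control hearts). Both intervals of Dcn include 0, and those of the other 9 genes lie above 0.

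Without M149 the same count of 9 members was called in Vegfc-deficient hearts, with log2 fold changes from 0.92 (Ogn) to 4.50 (Fmod), and Dcn stood at 0.03 (edgeR adjusted p = 0.946). M149 was the lowest of the 5 naive libraries for 6 of the 10 members (Bgn, Dcn, Lum, Prelp, Podn and Chad, the last tied with M44 at 0). M150 was the highest for 6 of 10.

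The make-up of the family turned over with MI. Summed over the 10 members, its share of all counts was 0.363% to 0.465% in naive and 1.31% to 1.72% in MI libraries, with no overlap. Per kilobase, Dcn went from 58.4% to 20.5% ± 3.54 (SD, n = 3) of the family in control and from 54.9% to 21.0% ± 3.89 (n = 3) in Vegfc-deficient hearts. Bgn went from 7.07% ± 1.10 (n = 2) to 22.6% ± 4.46 (n = 3) in control and from 7.57% ± 0.872 to 28.9% ± 3.40 (n = 3 each) in Vegfc-deficient hearts. Aspn went from 2.92% to 11.4% ± 3.63 and from 3.44% to 9.32% ± 0.956, and Fmod from 0.135% to 3.41% ± 0.623 and from 0.265% to 2.75% ± 0.628. Lum went from 18.4% to 26.3% ± 3.17 in control and from 18.2% to 24.3% ± 2.81 in Vegfc-deficient hearts. Its share in each MI library lay above that in each naive library. Ogn went from 10.6% to 12.8% ± 2.36 and from 13.3% to 10.2% ± 1.82, and its MI and naive shares overlapped in both genotypes. After MI the levels of Lum, Bgn and Dcn per kilobase overlapped in control hearts, so their order was not fixed there. The order and the shares also depend on the exon lengths used, which join the exons of all transcripts of a gene (Dcn 5838 and Lum 2448 bases). In CPM not divided by length, Dcn (3189 to 4618) lay above Lum (1701 to 2301) in all MI control libraries. In Vegfc-deficient hearts Bgn (792 to 1046 CPM per kb) lay above Dcn (593 to 782 CPM per kb) by a narrow gap, and Lum overlapped both. Without M149 the naive Vegfc-deficient shares were 53.0% for Dcn, 18.9% for Lum, 7.93% for Bgn, 3.53% for Aspn and 0.315% for Fmod (n = 2).

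**Figure D3:**
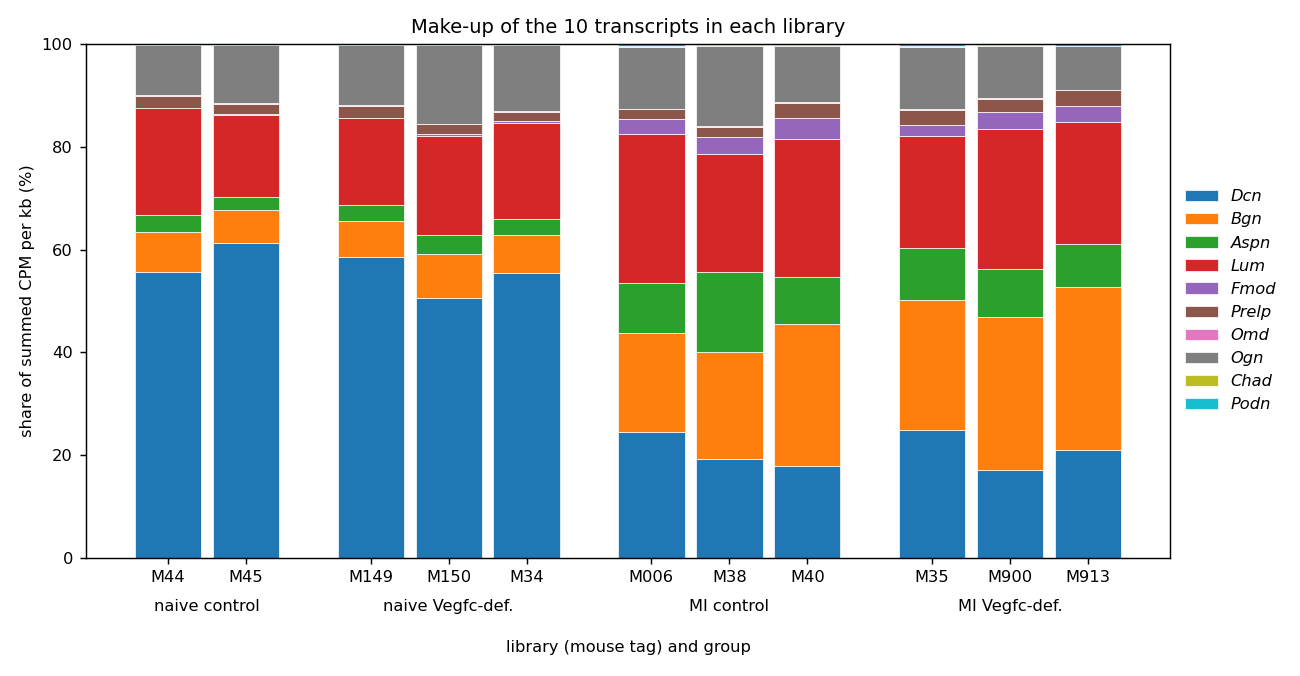
Share of each member in the summed CPM per kilobase of exon of the 10 members (y axis, percent), as a stacked bar for each library, grouped on the x axis. Dcn takes 50.5% to 61.3% in naive libraries and 17.1% to 24.9% in MI libraries.

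Because a ratio of counts within a library does not depend on how libraries are scaled, each of the other 9 members was also set against Dcn, a choice made after the levels had been seen. The ratio of Bgn to Dcn was 0.107 to 0.177 in naive and 0.822 to 1.81 in MI libraries. The ratio of Fmod to Dcn was 0.000653 to 0.00361 in naive and 0.0464 to 0.128 in MI libraries, and that of Ogn to Dcn, which moved least, was 0.0775 to 0.133 and 0.177 to 0.353. None of the 9 ratios overlapped between naive and MI libraries. Averaged over the genotypes, the ratio to Dcn rose 9.60-fold for Bgn, 8.84-fold for Aspn, 48.7-fold for Fmod, 4.94-fold for Podn, 3.80-fold for Lum, 3.37-fold for Prelp, 2.96-fold for Omd and 2.64-fold for Ogn. Each gave p = 0.005 in a two-sided exact permutation test of the naive and MI labels within genotype, the smallest value that the 200 arrangements allow. The ratio of Chad, with 0.5 added to its counts, gave the same p. All 9 ratios share a denominator chosen after the levels were seen. These p-values thus add no support beyond the separation of levels already given.

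Several members are neighbours in the genome, and coordinates here are those of GRCm38 (GENCODE M21), the assembly behind the authors' mm10 build. Dcn (ENSMUSG00000019929, chr10:97479609-97518143) and Lum (ENSMUSG00000036446, chr10:97565128-97572703) lie 47.0 kb apart on the plus strand with no protein-coding gene between them, yet Lum rose and Dcn did not pass the threshold. Aspn (ENSMUSG00000021388, chr13:49544443-49567565), Omd (ENSMUSG00000048368, chr13:49582462-49592822) and Ogn (ENSMUSG00000021390, chr13:49608046-49624501) follow each other within 14.9 and 15.2 kb, and all 3 rose. In the MI control group these 3 genes ranked the libraries alike, M38 above M006 above M40. In the MI Vegfc-deficient group Omd and Ogn had M35 highest but Aspn had M900, and in naive libraries the orders of the 3 genes differed. M913 was the lowest MI library for each of the 3 genes, and also for Lum and Chad, which lie on other chromosomes. Prelp (ENSMUSG00000041577, chr1:133910304-133921414, minus strand) and Fmod (ENSMUSG00000041559, chr1:134037254-134048277, plus strand) are 115.8 kb apart. Bgn (ENSMUSG00000031375, chrX:73483602-73495933), Podn (ENSMUSG00000028600, chr4:108014791-108096445, minus strand) and Chad (ENSMUSG00000039084, chr11:94565047-94569127) stand alone. Cenpp runs over the chromosome 13 genes on the opposite strand and shares 7 exon bases with Aspn, and Gm15851 shares 350 of the 3615 exon bases of Prelp on the opposite strand. The library kit marked strand but the counting setting was not given in the sources used here, so reads of these overlaps could belong to either gene.

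Promoter windows of 250 bases before the RefSeq transcription start (GRCm38.p6) were at hand for 8 of the 10 members, all but Dcn and Lum. They are printed for Fmod and Chad, which had the highest MI over naive ratios, and for the chromosome 13 neighbours Aspn, Omd and Ogn. The windows are chr1:134037004-134037253 for Fmod and chr11:94564797-94565046 for Chad, chr13:49544193-49544442 for Aspn, chr13:49582212-49582461 for Omd and chr13:49607765-49608014 for Ogn, all on the plus strand and written 5′ to 3′. Capitals mark matches on either strand to TATAAA, the core promoter element, to GGGCGG, bound by Sp factors, to TGANTCA, bound by AP-1, to GGAATG, bound by TEAD factors, or to CAGACA, bound by SMAD factors.
Fmod: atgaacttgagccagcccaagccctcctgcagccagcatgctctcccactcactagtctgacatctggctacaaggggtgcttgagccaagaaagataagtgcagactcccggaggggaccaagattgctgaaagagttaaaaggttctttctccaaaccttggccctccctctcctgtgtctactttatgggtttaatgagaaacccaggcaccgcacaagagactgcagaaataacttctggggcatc
Chad: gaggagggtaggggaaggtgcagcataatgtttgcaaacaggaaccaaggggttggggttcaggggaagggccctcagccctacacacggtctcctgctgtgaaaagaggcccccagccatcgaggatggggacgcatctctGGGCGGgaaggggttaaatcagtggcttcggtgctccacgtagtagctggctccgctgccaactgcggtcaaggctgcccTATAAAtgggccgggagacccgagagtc
Aspn: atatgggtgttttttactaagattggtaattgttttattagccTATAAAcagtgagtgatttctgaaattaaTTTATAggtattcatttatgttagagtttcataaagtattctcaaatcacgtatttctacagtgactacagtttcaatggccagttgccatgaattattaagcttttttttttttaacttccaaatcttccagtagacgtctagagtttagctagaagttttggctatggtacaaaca
Omd: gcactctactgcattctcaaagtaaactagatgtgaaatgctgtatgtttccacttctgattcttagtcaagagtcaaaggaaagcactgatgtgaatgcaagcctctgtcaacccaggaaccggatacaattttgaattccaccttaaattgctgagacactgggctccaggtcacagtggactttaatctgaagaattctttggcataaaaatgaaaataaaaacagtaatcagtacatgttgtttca
Ogn: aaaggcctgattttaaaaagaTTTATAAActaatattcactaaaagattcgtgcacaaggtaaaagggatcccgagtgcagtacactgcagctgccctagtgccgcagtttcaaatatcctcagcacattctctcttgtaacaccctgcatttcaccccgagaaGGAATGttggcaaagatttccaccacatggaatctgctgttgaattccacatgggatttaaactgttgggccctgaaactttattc

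TATAAA was found in the windows of Chad, Aspn and Ogn, beside 12.4% of 32851 windows of the same length in the table. In Chad the match begins 28 bases before the start. In Aspn it lies 207 and, on the other strand, 178 bases before the start, and in Ogn the 2 strands' matches overlap at 229 and 227 bases. GGGCGG was found in Chad, Bgn and Podn (32.7% of all windows) and GGAATG only in Ogn among the 8 (12.6%). TGANTCA (6.75%) and CAGACA (17.1%) had no match in any of the 8 members' windows, and Fmod, Omd and Prelp held none of the 5 motifs. A match describes letters in a window and was not tested as a site.

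No member passed the threshold between the genotypes after MI. All 10 had overlapping libraries and intervals that include 0, and 0 of 14779 genes had an adjusted p under 0.05 (edgeR), so the share called was 0%. At an unadjusted p under 0.05 there were 1173 genes and 0 members. DESeq2 called 62 genes, with 0 members among them. Libraries that did not overlap were seen for 5.99% of all genes in the higher and 6.12% in the lower direction, and for 0 members.

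After MI, Bgn averaged 4276 CPM ± 774 (SD, n = 3) in control and 5569 CPM ± 778 (n = 3) in Vegfc-deficient hearts, a log2 difference of 0.38 (SE 0.28, interval -0.23 to 0.99, edgeR adjusted p = 0.761). Prelp averaged 257 CPM ± 64.1 and 328 CPM ± 5.86, with a log2 difference of 0.35 (SE 0.18, interval -0.04 to 0.75, adjusted p = 0.657). Podn stood at 0.26 (interval -0.17 to 0.68) and Dcn at 0.04 (interval -0.53 to 0.62). The remaining 6 had values below 0: Lum -0.09 (interval -0.65 to 0.48), Aspn -0.25 (-0.82 to 0.32), Omd -0.26 (-1.06 to 0.55), Fmod -0.27 (-1.19 to 0.65), Ogn -0.28 (-0.87 to 0.31) and Chad -0.62 (-1.84 to 0.59). The signs of Dcn, Lum, Aspn and Omd turned on leaving out single libraries, and Chad went to -1.31 without M35. The half-width of the intervals was 0.39 for Prelp and 1.22 for Chad at the extremes, so smaller differences than these could not be seen at this sample size. The intervals are not adjusted for the 14779 genes tested, so larger differences could also miss the threshold.

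**Figure D4:**
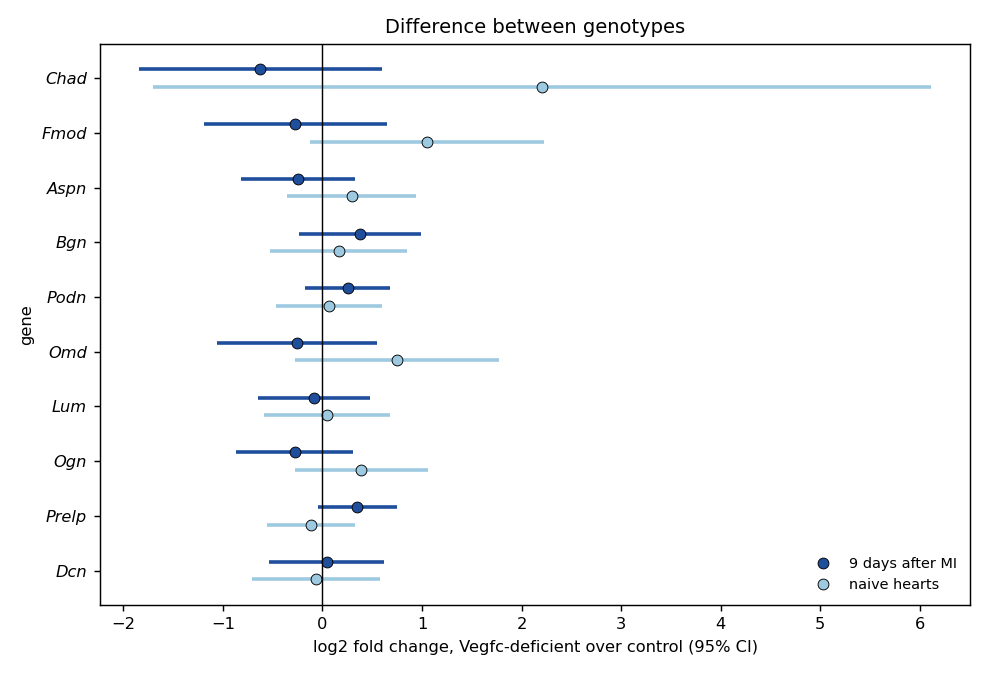
Log2 fold change of each member, Vegfc-deficient over control (x axis), with its 95% confidence interval, after MI and in naive hearts (y axis, genes in the order of the MI response). All 20 intervals include 0, and those of Chad are the widest.

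In naive hearts 0 members and 0 of 14779 genes (0%) were called between the genotypes by edgeR, with 499 genes and 0 members at an unadjusted p under 0.05, while DESeq2 called 14 genes and limma-voom 6, with 0 members among them. Without M149 edgeR called 17 of 14791 genes and 0 members, with 983 genes at an unadjusted p under 0.05. Omd was the single member whose libraries did not overlap, higher in Vegfc-deficient hearts (2.76 and 2.99 against 3.51 to 5.78 CPM, log2 difference 0.75, SE 0.46, adjusted p = 1), a pattern found for 12.3% of all genes. Fmod stood at 1.05 (interval -0.12 to 2.22) and Chad, from 1 and 7 counts, had an interval of -1.70 to 6.11. The value of Fmod was 0.42 without M44, 2.17 without M45 and 1.39 without M149 (edgeR adjusted p = 0.547 for the last). Its size thus depended on which naive control library was kept. Omd was at 0.71 without M149 (adjusted p = 0.888).

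The difference between the genotypes in the response to MI was tested as an interaction. It was past the threshold for 0 members and 0 of 14779 genes (0%) by edgeR, with 1226 genes and 0 members at an unadjusted p under 0.05 and 58 genes by DESeq2. Fmod had an interaction of -1.32 on the log2 scale (SE 0.67, interval -2.81 to 0.16, adjusted p = 0.620), Omd -1.003 (interval -2.30 to 0.30), Ogn -0.67 (-1.56 to 0.22), Aspn -0.54 (-1.41 to 0.32) and Prelp 0.47 (-0.12 to 1.06). The interaction of Fmod was -0.69 without M44 and -2.44 without M45. Its size again depended on which naive control library was kept. Chad, with 1 and 7 naive counts, stood at -2.83 (interval -6.89 to 1.23) and ranged from -5.75 to -1.50 when single libraries were left out. Without M149 the values were -1.66 for Fmod (adjusted p = 0.346), -0.96 for Omd, -0.87 for Ogn, -0.71 for Aspn, 0.38 for Prelp and -3.42 for Chad, with 0 members past the threshold. The smaller fitted responses of Fmod, Omd and Ogn in Vegfc-deficient hearts were thus within the error of the comparison, as was the larger one of Prelp.

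Of 8 further genes of the family, 6 could be tested. MI was called higher for 4 of them in control (Tsku, Epyc, Podnl1 and Optc) and for 5 in Vegfc-deficient hearts, where Ecm2 was added. Ecm2, next to Aspn on chromosome 13, averaged 64.8 CPM ± 0.914 (n = 2) in naive and 101 CPM ± 28.8 (n = 3) in MI control hearts (log2 0.64, SE 0.34, edgeR adjusted p = 0.136), and 56.0 CPM ± 8.25 and 138 CPM ± 60.5 in Vegfc-deficient hearts (log2 1.30, SE 0.30, adjusted p = 0.00439). Tsku averaged 8.58 CPM ± 0.476 and 20.7 CPM ± 4.68 in control hearts (log2 1.27, SE 0.22, adjusted p = 0.00135). Epyc, a cartilage gene beside Kera and Lum, had 4 counts over the naive control and 309 over the MI control libraries, a ratio of 22.8 with a counting interval of 8.81 to 84.2. Chadl, at 2.75 CPM in naive and 2.95 CPM in MI control hearts, did not pass the threshold in either genotype. Kera, which lies between Lum and Epyc, had at most 2 counts in any library, and Nyx was below the filter.

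The collagens that these proteoglycans bind rose with them. In the list of 11 genes of fibril-forming, fibril-associated and type VI collagens, 10 were higher in control and 11 in Vegfc-deficient hearts. None was lower, and the median log2 fold changes were 3.82 and 3.83. Col3a1, Col1a2 and Col1a1, the chains of types III and I collagen, had log2 fold changes of 3.82, 4.10 and 4.93 in control hearts (SE 0.41, 0.39 and 0.49, edgeR adjusted p = 0.000197, 0.00014 and 0.000157). After MI all 11 had fitted values above 0 for Vegfc-deficient over control, with a median of 0.43 and 0 called.

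The enzymes that build the sulfated chains rose in part. Of 21 tested enzymes for the linkage region and for chondroitin and dermatan sulfate, 13 were higher and 1 lower by MI in control and 14 higher and 1 lower in Vegfc-deficient hearts (median log2 fold change 1.20 and 1.126). Chpf, a chondroitin polymerizing factor, went from 21.6 to 121 CPM in control hearts (log2 2.48, SE 0.28, edgeR adjusted p = 0.000224). Dse, which makes the dermatan sulfate epimer, had a log2 fold change of 1.20 (SE 0.29, adjusted p = 0.00685). Fam20b, the xylose kinase of the linkage region, fell by 0.54 on the log2 scale in control hearts (SE 0.12, adjusted p = 0.00439). Of 5 enzymes of keratan sulfate, the chain of lumican and fibromodulin, 2 were higher in control and 3 in Vegfc-deficient hearts, with none lower. B4galt1 had log2 fold changes of 1.04 and 1.06, Chst2 of 1.71 and 1.92, and B4galt4, with -0.43 and -0.41, did not pass the threshold.

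Of 16 growth factors and receptors described as partners of the family, 9 were higher in control and 13 in Vegfc-deficient hearts, with none lower. Itgb1, the β1 integrin chain, had a log2 fold change of 0.83 in control hearts (SE 0.20, edgeR adjusted p = 0.00576), Tgfbr2 of 0.91 (SE 0.15, adjusted p = 0.00107) and Tgfb3 of 3.20 (SE 0.27, adjusted p = 0.00011). Of 14 enzymes that process or cleave the family or the matrix beside it, 7 were higher in each genotype and none lower. Mmp2, a gelatinase, had log2 fold changes of 1.67 and 2.63, and Pcolce, the enhancer of procollagen processing, of 0.81 and 1.65. Mmp12 spread too widely to be read, at 293 CPM ± 465 (SD, n = 3) in naive Vegfc-deficient hearts. Of 15 proteoglycans outside the family, 11 were higher in each genotype, with 1 lower in control and 2 in Vegfc-deficient hearts. Among them the basement membrane perlecan gene Hspg2 had log2 fold changes of 0.75 and 1.12, and the syndecans Sdc3 and Sdc2 had 1.88 and 0.60 in control hearts.

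**Figure D5:**
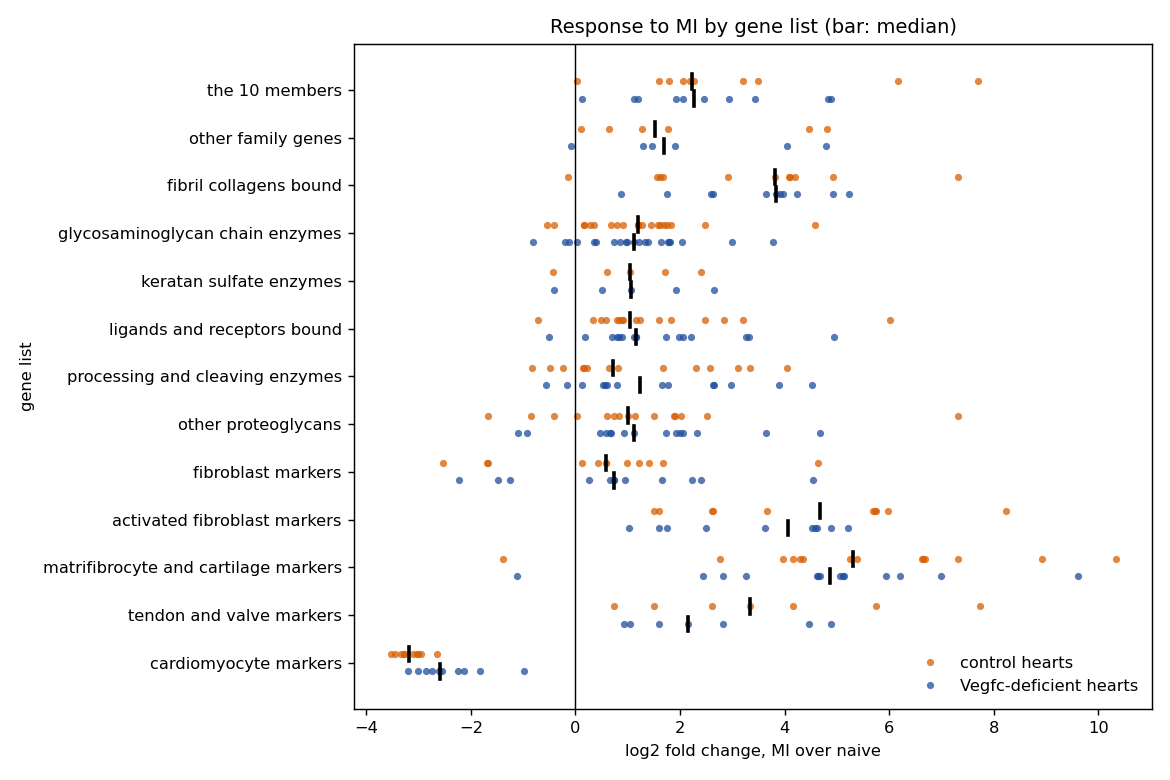
Log2 fold change, MI over naive (x axis), of each tested gene in 13 gene lists (y axis), as points for control and for Vegfc-deficient hearts, with black bars at the medians. The medians of the 10 members are 2.23 and 2.26, those of the collagens 3.82 and 3.83, and all cardiomyocyte markers lie below 0.

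Markers of cell types moved with MI beside the members. All 10 cardiomyocyte markers were lower in control and 9 of 10 in Vegfc-deficient hearts, and their summed level was 104637 to 137489 CPM in naive and 3592 to 34173 CPM in MI libraries, with no defining marker at 0. The most abundant, Mb, Myl2 and Tnnt2, had log2 fold changes of -2.94, -3.46 and -3.03 in control and -3.01, -2.74 and -2.56 in Vegfc-deficient hearts. All 10 markers of activated fibroblasts were higher in both genotypes, with summed levels of 601 to 1041 CPM in naive and 10815 to 19022 CPM in MI libraries, led in level by Postn (log2 fold change 5.68 and 4.53), Fn1 (3.66 and 3.62) and Acta2 (2.63 and 2.49). The 12 general fibroblast markers were mixed, with 4 higher and 3 lower in control and 7 higher and 3 lower in Vegfc-deficient hearts, and summed levels of 4252 to 5272 CPM in naive and 3694 to 6362 CPM in MI libraries. Among them Gsn was at -1.67 and -1.25, Mfap4 at 4.64 and 4.55, and Dpt, at 0.44 and 0.26, did not pass the threshold. Of 14 markers of matrifibrocytes and cartilage, a scar fibroblast state that includes cartilage genes, 13 were higher and 1 lower in each genotype, with a summed 171 to 286 CPM in naive and 3199 to 4303 CPM in MI libraries, and Col8a1 (3.96 and 3.26), Sfrp2 (6.65 and 5.14) and Thbs1 (5.39 and 4.62) were the most abundant. Of 7 tendon and valve markers, 7 were higher in control and 6 in Vegfc-deficient hearts, led by Tnc (5.75 and 4.89), Thbs4 (2.61 and 1.60) and Nfatc1 (0.74 and 1.04). Tnc and Thbs4 are also in the activated fibroblast list and Hapln1 in the matrifibrocyte and cartilage list. The counts of these lists are thus not separate. Of 10 macrophage markers, 6 were higher and 1 lower in each genotype, with C1qb at 1.70 and 1.17, C1qa at 1.34 and 0.88 and C1qc at 1.35 and 1.09. Of 8 endothelial markers, 2 were lower in each genotype and 2 higher in Vegfc-deficient hearts, and the most abundant were Egfl7 (-0.75, not past the threshold, and -1.51), Pecam1 (-0.59 and 0.31, neither past it) and Emcn (-0.87 and -0.47, the second not past it). Of 8 smooth muscle and pericyte markers, 4 were higher and 3 lower in each genotype, with Rgs5 at -1.05 and -1.24, Tagln at 4.01 and 3.24 and Abcc9 at -2.26 and -1.67. Of 6 epicardial markers, 4 were higher in control and 3 in Vegfc-deficient hearts, with Upk3b (1.61 and 0.76) not past the threshold and Msln at 2.35 and 2.15 and Upk1b at 3.71 and 2.33. Markers of lung epithelium and of adipocytes were near absent, with summed levels of at most 2.65 and 20.0 CPM in any library, and of the 2 and 3 that could be tested 1 each was higher in control hearts and 1 lung marker was lower in both genotypes. Without M149 the count for MI in Vegfc-deficient hearts moved by at most 2 genes in any list, among them the endothelial markers called higher (from 2 to 0) and the general fibroblast markers called higher (from 7 to 5). The part of these cell types in the levels of the members was not tested.

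The genes whose levels ran most like each member were found as the smallest root mean square difference of centred log2 CPM over the 11 libraries, as a description over libraries that share their groups. For Bgn they were Fat1 (0.0995), Tgfb3 (0.147) and Adamts2 (0.158), for Prelp Vcan (0.152), Col4a5 (0.165) and Bcr (0.167), and for Podn Thbs3 (0.184), Ltbp3 (0.199) and Cyp7b1 (0.210). For Fmod they were 1500015O10Rik (0.322), Lox (0.334), the lysyl oxidase gene, and Sfrp2 (0.400), and for Chad Tnmd (0.569), the tendon gene tenomodulin, Nox4 (0.665) and Dkk3 (0.696). Lum ran nearest to Ppic (0.154), Shroom1 (0.182) and Bdh2 (0.182), Aspn to Abi3bp (0.286), Etv4 (0.316) and Gxylt2 (0.330), Ogn to Greb1l (0.198) and Casp12 (0.226), and Omd to Cldn1 (0.382), Nfkbiz (0.386) and Tcf7 (0.392). The nearest member to Fmod was Chad, at rank 27 of all genes, and the nearest to Chad was Fmod, at rank 7. Dcn ran nearest to Slc9a9 (0.0981), Myo6 (0.0993) and Exd2 (0.0994), and its nearest member, Ogn, came at rank 10212.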

How the data were processed

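Stranded mRNA libraries (TruSeq) of left ventricle from 11 mice were analysed. Per the submitters' processing notes, which name cutadapt 1.13, STAR, HTSeq 0.6.1p1, DESeq2 1.14.1 and mm10, the authors deposited raw counts per Ensembl gene, with no normalization. The role of each tool and the strand setting were not given in the sources used here. Groups came from sample titles. Counts were scaled by TMM and tested with edgeR 4.0.16 (R 4.3.3) in 1 quasi-likelihood fit of 4 groups, after filterByExpr, with Benjamini-Hochberg adjustment over 14779 genes and a threshold of 0.05. SE was derived from the F statistic. CPM per kilobase used union exon length (GENCODE M21, matching 24991 of 25006 genes). The text names all 10 members, the 3 genes of highest mean CPM in each list but those of lung and adipocyte markers, and 3 like genes per member, of which 1 is not reported here. The members and lists were chosen with earlier results of these data known. Replicates differed beyond counting noise (chi-square per gene 8.70 to 177), so none was merged. The p-values of edgeR set differences between groups against the spread between mice within groups, estimated over all 4 groups together. Replicates of naive control differed least (chi-square per gene 8.70). The procedure was tested on simulated data for MI in control hearts and for genotype after MI. Far fewer genes were changed there than were called for MI here, so it does not test the scaling under so wide a change. Alternatives were 9 other settings (including DESeq2 1.42.0 and limma-voom 3.58.1) and leaving out each of 11 libraries.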

Additional observations from a re-analysis of the deposited data

How the results depend on the processing

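The count of members called was 9 for MI in control hearts under all 20 alternatives, 8 to 10 in Vegfc-deficient hearts, and 0 for both genotype comparisons under all 20 and for the interaction under the 19 that could be run. Omd in Vegfc-deficient hearts lost its call in 3 alternatives, and Dcn gained one with library size alone. Of 989 refitted fold changes of members, 955 kept their direction and side of the threshold. The reversed ones were of values whose main intervals include 0. For MI they were Dcn in control hearts (-0.044 with DESeq2's size factors and with its Wald test, leave-one-out range -0.161 to 0.133) and in Vegfc-deficient hearts (-0.00067 with limma-voom, -0.0144 to 0.194). For genotype after MI they were Dcn (-0.072 with limma-voom, -0.098 to 0.228), Aspn (-0.397 to 0.049), Omd (-0.763 to 0.104) and Lum (-0.245 to 0.020). Aspn and Omd, with main values of -0.25 and -0.26, turned without M38. For genotype in naive hearts they were Lum (-0.0184 with library size alone, -0.102 to 0.229), Dcn (-0.168 to 0.0465), Bgn (-0.0410 to 0.355) and Podn (-0.0862 to 0.245), and for the interaction Dcn (-0.0525 with limma-voom, -0.0350 to 0.325) and Lum (-0.316 to 0.0164). The cause was not tested.

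Counts over all genes moved more. Asking also for a log2 fold change of 1 or more in size left 4550 of 7450 genes for MI in control and 4965 of 8520 in Vegfc-deficient hearts. Leaving out a library gave 4574 to 7636 for MI in control hearts (4574 without M45 and 4880 without M44, where 1 naive control library was left and was assumed to vary like the other groups), 0 to 1 for genotype after MI, 0 to 17 in naive hearts (17 without M149) and 0 to 1 for the interaction. DESeq2's Wald test called 62 genes for genotype after MI, 14 in naive hearts and 58 for the interaction. In naive hearts limma-voom called 6 and a fit of only the groups compared called 2. No paired analysis was possible because the groups share no replicate numbers.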
